A study of Mus musculus with 6 samples.

Results

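Germline multi-copy gene families were followed through 3 fractions of undifferentiated mouse embryonic stem cell (ESC) cultures. Members were the rows of the raw count table whose gene symbol begins with Nlrp, Magea, Mageb, Maged, Magee, Mageh, Pramel, Pramef, Rhox, Tdrd or Sycp, or with Tex and a number. Symbols ending in a pseudogene mark and 1 excluded gene were left out. The rule found 120 of 38561 genes: 19 Nlrp, 20 Mage (8 Magea, 7 Mageb, 2 Maged, 2 Magee and 1 Mageh), 10 Prame (6 Pramel and 4 Pramef), 32 Rhox, 7 Tdrd, 4 Sycp and 28 Tex genes. The prefix decides membership, so the set also holds genes that are not known as germline genes, such as the inflammasome sensor Nlrp3, the ER-phagy receptor Tex264 and the widely expressed Maged1. Of the 120 members, 58 lie on chromosome X (GRCm38, GENCODE M21).

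The cultures, 129X1/SvJ x 129S1/Sv by strain, were at passages 13 to 17 and were grown without feeder cells on gelatin with 1000 U/ml leukemia inhibitory factor and 20% serum replacement. Cells were sorted by flow cytometry on PDGFRa, a growth factor receptor that marks primitive endoderm precursors, and PECAM1, an adhesion molecule of undifferentiated ESCs. The fractions were PDGFRa-only (PECAM1minPDGFRaplus), double-positive (PECAM1plusPDGFRaplus) and PECAM1-only (PECAM1plusPDGFRamin), and each library came from the amplified RNA of 100000 sorted events. Each fraction has 2 libraries, 6 in all. Their titles end in Exp1 and Exp2 in each fraction. Nothing in the labels says whether these came from separate cultures or whether libraries of the same number belong together. Each p therefore measures only the spread between these libraries, which may be technical.

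These families are best known from germ cells. NLRP proteins of the oocyte include parts of a maternal complex under the egg surface, MAGE proteins partner with ubiquitin ligases, PRAME proteins are leucine-rich repeat proteins, RHOX proteins are homeodomain transcription factors encoded in 1 cluster on chromosome X, TDRD proteins bind methylated arginines in piRNA granules, and SYCP proteins build the synaptonemal complex of meiosis. Tex (testis expressed) is a naming group and not a protein family. In somatic cells many of these genes are kept silent by DNA methylation, and in ESCs some are held down by E2F6 and by the MGA and MAX proteins of a Polycomb complex.

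Total counts were 4809661 and 7273669 for PDGFRa-only, 6568777 and 6634022 for double-positive and 6147345 and 5694077 for PECAM1-only libraries. The 6 listed marker genes of primitive endoderm summed to 4036 and 4145 CPM (read counts scaled to the TMM-adjusted library size) in PDGFRa-only, 2851 and 3048 in double-positive, and 13.5 and 16.8 in PECAM1-only libraries. Nanog, a factor of pluripotent cells, was at 0.451, 38.6 and 199 CPM on average in the same 3 fractions. Other listed ESC markers differed less, with Pou5f1 at 76.7, 101 and 138 CPM and Klf4, which was not called, at 105, 87.1 and 89.8 CPM. The primitive endoderm markers thus went with the sort labels, as did 5 of the 6 listed ESC markers. In bulk RNA, fewer cells expressing a gene and less RNA per cell cannot be told apart.

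Most members were low or silent. No count in any library was found for 35 of the 120 members: 17 Rhox, 6 Nlrp, 5 Tex, 4 Mage and 3 Prame genes. A further 34 had counts but stayed below the filter for testing, the highest being Nlrp9c with 33 counts over the 6 libraries. The other 51 were tested. Of all 38561 genes, 24748 had a count in some library and 13909 were tested, so low or absent counts are not particular to the members. Counts were present for 47 and 56 members in the PDGFRa-only libraries, for 73 and 72 in the double-positive libraries and for 79 and 77 in the PECAM1-only libraries. By total counts the second PDGFRa-only library was the deepest of the 6, and it still showed fewer members than any PECAM1-positive library. The same order held over all genes. Counts were present for 17811 and 18785 genes in PDGFRa-only, 19958 and 20364 in double-positive and 20509 and 20510 in PECAM1-only libraries.

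Set against the PECAM1-only fraction, 13 of the 51 tested members were higher and 30 lower in PDGFRa-only cells, at an adjusted p below 0.05 (edgeR). That is 84.3% called, beside 59.0% of all 13909 tested genes, of which 30.1% were higher and 28.8% lower. The count of lower members leans on the filter: 9 tested members had both libraries above its level of 1.57 CPM in the PECAM1-only fraction alone and 15 in the double-positive and PECAM1-only fractions, and of these 23 were lower. Among the 22 members above that level in all 3 fractions, 10 were higher and 7 lower in PDGFRa-only cells. All 6 tested Nlrp and all 5 tested Magea genes were lower, as were 5 of 6 Prame genes, while 3 of 5 Rhox genes and both Maged genes were higher. None of these Nlrp and Magea genes had both PDGFRa-only libraries above the filter level, so their shared direction leans on the filter.

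**Figure D1:**
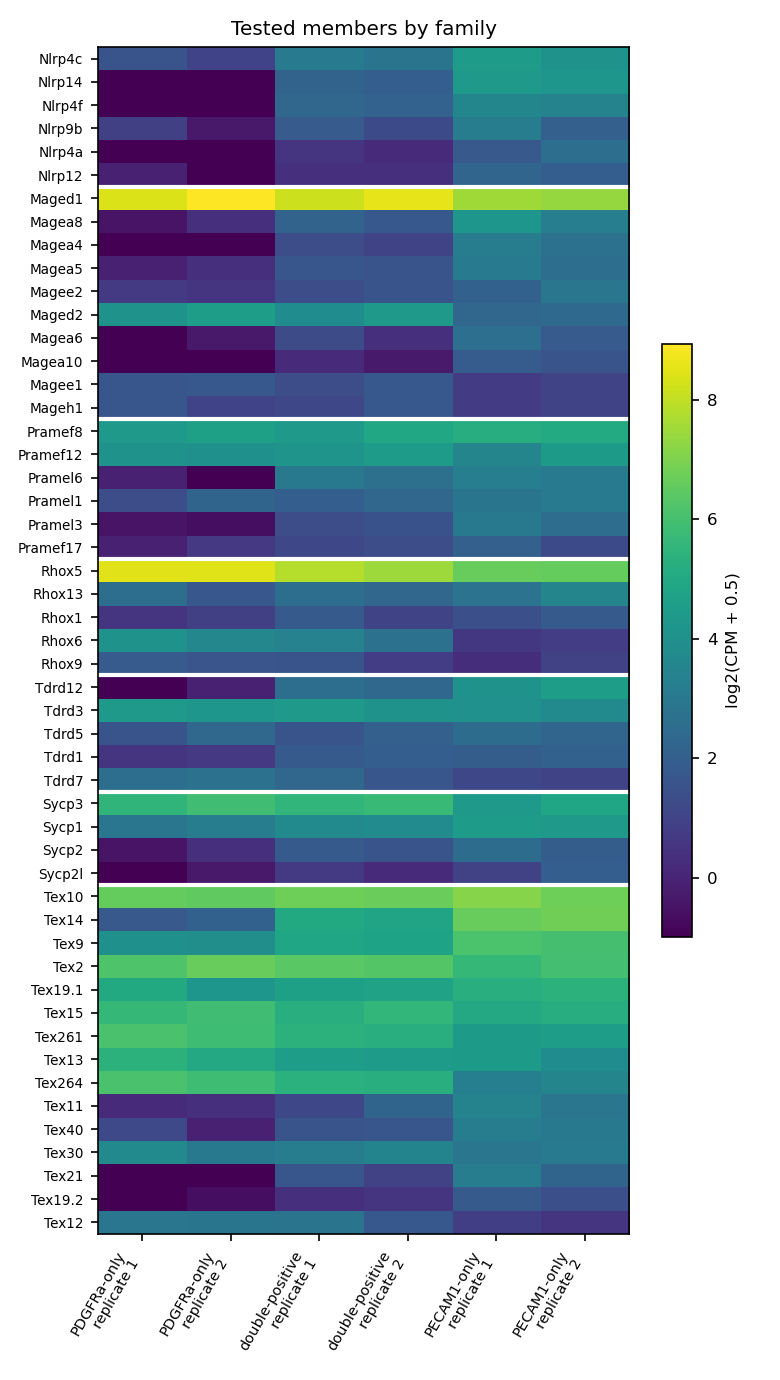
Levels of the 51 tested members in each library, as log2(CPM + 0.5), with 1 row per gene grouped by family and 1 column per library. The Nlrp, Magea and Pramel rows darken toward the PDGFRa-only columns on the left, while Rhox5, Rhox6, Maged1, Maged2, Tex261 and Tex264 brighten.

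All 6 tested Nlrp genes were lower in the PDGFRa-only than in the PECAM1-only fraction. Nlrp14, a gene of oocytes and spermatogenic cells on chromosome 7, was at 0 and 0 CPM in PDGFRa-only, 3.93 and 3.44 CPM in double-positive and 20.4 and 18.2 CPM in PECAM1-only libraries. The 3 fractions did not overlap. Against a floor of 3 counts over the fraction, Nlrp14 was at least 71.2-fold lower in the PDGFRa-only than in the PECAM1-only fraction (edgeR adjusted p = 3.55e-10). Nlrp4f, another oocyte gene, on chromosome 13, was at 0 and 0 CPM in PDGFRa-only, 4.41 and 3.91 CPM in double-positive and 11.2 and 10.3 CPM in PECAM1-only libraries, at least 39.8-fold lower in PDGFRa-only than in PECAM1-only cells. Nlrp4a was also at 0 in both PDGFRa-only libraries, against 2.91 and 5.49 CPM in the PECAM1-only libraries, at least 15.5-fold lower. Nlrp4c kept a measurable level, with 2.47 and 1.51 CPM in PDGFRa-only, 8.34 and 6.57 CPM in double-positive and 21.8 and 16.8 CPM in PECAM1-only libraries. Nlrp4c was thereby lower by a log2 fold change of -3.32 (SE 0.34, edgeR adjusted p = 4.14e-08) in PDGFRa-only cells.

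Nlrp9b, known in mouse as a sensor of viral RNA in the gut, had 1.35 and 0.302 CPM in PDGFRa-only against 8.73 and 3.61 CPM in PECAM1-only libraries, a log2 fold change of -3.04 (SE 0.62, edgeR adjusted p = 0.000244). Nlrp12, a regulator of inflammatory signalling, had 2 counts over the PDGFRa-only fraction and was 21.3-fold lower there than in the PECAM1-only fraction (exact 95% counting interval 5.61 to 181). Its exons overlap a cluster of ESC microRNA genes, Mir291a to Mir295, over 7.13% of their bases on either strand, and it is not stated that counting used strand, so reads of the 2 loci cannot be told apart there. Summed over all 19 members, Nlrp reads came to 5.16 and 2.57 CPM in PDGFRa-only, 22.7 and 18.6 CPM in double-positive, and 74.7 and 60.5 CPM in PECAM1-only libraries. The median fitted log2 fold change of the 6 tested genes was -5.97, or -4.10 with the genes at 0 set to their bound, beside 0.01 for all tested genes. All 6 passed the filter through PECAM1-positive fractions and none through PDGFRa-only, so this contrast of medians leans on the filter and is no support.

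Nlrp5, known in mouse as Mater and a part of the egg's subcortical maternal complex, had only 3 counts in the 6 libraries. Partners of it in that complex were measurable. All 4 tested ones, of 5 listed, were lower in the PDGFRa-only than in the PECAM1-only fraction, beside 28.8% of all tested genes. Khdc3 was under the filter level of 1.57 CPM in the PDGFRa-only libraries, so the count leans in part on the filter. Khdc3 had 0.449 and 0.453 CPM in PDGFRa-only, 8.03 and 4.85 CPM in double-positive and 13.8 and 15.1 CPM in PECAM1-only libraries, with a log2 fold change of -4.94 (SE 0.47, edgeR adjusted p = 1.13e-08) for PDGFRa-only over PECAM1-only. For Ooep the log2 fold change was -1.95 (SE 0.25), for Tle6 -1.19 (SE 0.38) and for Zbed3 -0.54 (SE 0.21). Nlrp3, the inflammasome sensor, had 14 counts in all and Nlrp10 had 10, and Nlrp1a and Nlrp1b had none.

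The Mage genes did not all move alike. Type I genes of the Magea subfamily, which in normal mouse tissue are read mainly in germ cells, were lower in PDGFRa-only cells in all 5 tested cases. All 5 passed the filter through PECAM1-positive fractions and none through PDGFRa-only, so this shared direction leans on the filter and is no support. Magea8 had 0.224 and 0.755 CPM in PDGFRa-only, 3.93 and 2.82 CPM in double-positive and 18.1 and 8.94 CPM in PECAM1-only libraries. The drop relative to PECAM1-only cells was a log2 fold change of -4.60 (SE 0.53, edgeR adjusted p = 2.03e-07), and the 3 fractions did not overlap. Magea4 was at 0 in both PDGFRa-only libraries, against 8.88 and 6.27 CPM in the PECAM1-only libraries, at least 28.0-fold lower. Magea10 was likewise at 0, against 3.20 and 2.51 CPM, at least 10.5-fold lower. Magea6, with 2 counts over the PDGFRa-only fraction, was 24.7-fold lower there (exact 95% counting interval 6.53 to 208). Magea5 had 0.449 and 0.755 CPM in PDGFRa-only and 8.15 and 5.49 CPM in PECAM1-only libraries, a log2 fold change of -3.40 (SE 0.52, edgeR adjusted p = 8.65e-06).

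Type II genes, which are read widely in the body, were mixed, with 2 of 5 tested higher and 1 lower. Maged1, a cell cycle and apoptosis regulator and the strongest Mage gene, had 340 and 492 CPM in PDGFRa-only, 294 and 376 CPM in double-positive and 183 and 163 CPM in PECAM1-only libraries. For Maged1 this gave a log2 fold change of 1.27 (SE 0.18, edgeR adjusted p = 4.97e-06) in PDGFRa-only over PECAM1-only cells. Maged2, which in the kidney supports salt transport, had 16.2 and 23.4 CPM in PDGFRa-only, 13.8 and 19.6 CPM in double-positive and 4.37 and 4.70 CPM in PECAM1-only libraries, with a log2 fold change of 2.14 (SE 0.29). For both genes the PDGFRa-only and double-positive libraries overlapped, and the PECAM1-only libraries lay below them. Magee2 was lower in PDGFRa-only than in PECAM1-only cells, by a log2 fold change of -2.41 (SE 0.51). Magee1 and Mageh1 were not called, with log2 fold changes of 1.03 (SE 0.50) and 0.57 (SE 0.56).

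The summed Mage level was 364 and 523 CPM in PDGFRa-only, 327 and 414 CPM in double-positive and 243 and 209 CPM in PECAM1-only libraries, most of it Maged1. The Magea genes alone came to 0.673 and 2.27 CPM in PDGFRa-only, 12.1 and 8.76 CPM in double-positive and 47.3 and 28.4 CPM in PECAM1-only libraries. No Mageb gene passed the filter, and the highest of them, Mageb16, had 32 counts. The RefSeq promoter window of Magea5 (minus strand of GRCm38.p6, chrX:155061554-155061703) is shown because it holds no CpG at all in these 150 bases.
Magea5: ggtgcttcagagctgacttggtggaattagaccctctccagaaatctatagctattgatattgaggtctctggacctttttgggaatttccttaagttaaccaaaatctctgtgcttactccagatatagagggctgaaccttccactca

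**Figure D2:**
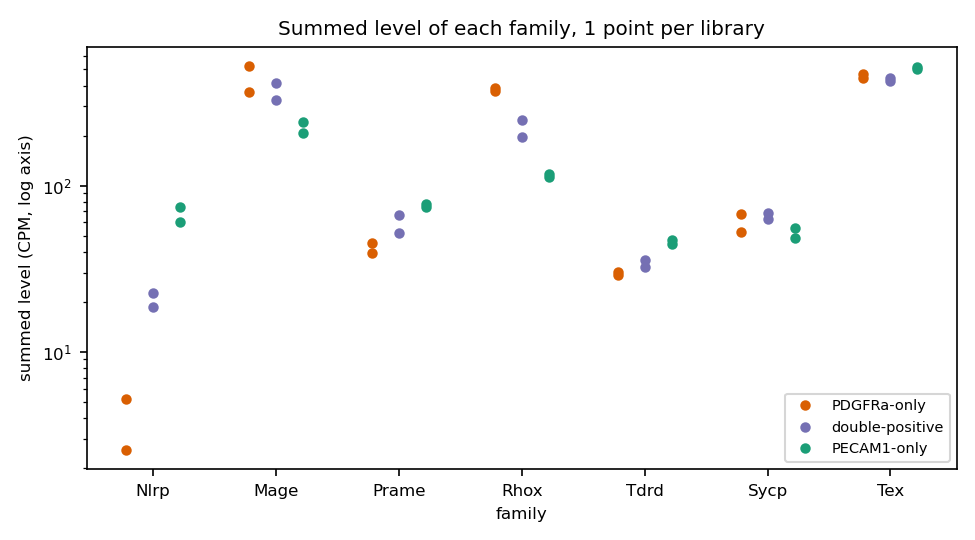
Summed level of each family in CPM, on a log axis, with 1 point per library and the fractions side by side. Nlrp reads are lowest in the PDGFRa-only libraries, at 5.16 and 2.57 CPM, and Rhox reads are highest there, while Mage reads of the PDGFRa-only and double-positive libraries overlap.

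Prame genes differed in level and in change. Pramel3, Pramel6 and Pramef17 were above the filter level in the double-positive and PECAM1-only fractions alone, so their lower direction leans on the filter. Pramef8, Pramef12 and Pramel1 were above it in all 3 fractions. Pramel6, read in naive ESCs and the inner cell mass, had 0.449 and 0 CPM in PDGFRa-only, 7.55 and 5.79 CPM in double-positive and 9.03 and 7.84 CPM in PECAM1-only libraries. With 2 counts over the PDGFRa-only fraction it was 46.8-fold lower there than in the PECAM1-only fraction (exact 95% counting interval 12.7 to 391). Pramel3 on chromosome X was 36.4-fold lower (exact 95% counting interval 9.77 to 305), with 0.224 and 0.151 CPM in PDGFRa-only and 7.72 and 5.33 CPM in PECAM1-only libraries. Only 18.2% of the 50-base stretches of Pramel3 are found in no other annotated gene, so its counts are uncertain.

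The more abundant Pramef8 and Pramef12 moved little. Pramef8 had 19.8 and 24.9 CPM in PDGFRa-only, 20.0 and 29.9 CPM in double-positive and 35.8 and 33.6 CPM in PECAM1-only libraries, a log2 fold change of -0.62 (SE 0.22, edgeR adjusted p = 0.0203) for PDGFRa-only over PECAM1-only. Pramef12, needed by spermatogonial stem cells, had 16.4 and 15.3 CPM in PDGFRa-only and 11.1 and 20.7 CPM in PECAM1-only libraries and was not called (edgeR adjusted p = 0.992). Pramel1 had a log2 fold change of -1.25 (SE 0.38) and Pramef17 of -1.77 (SE 0.60) between the same fractions. The calls of Pramef8, Pramel1 and Pramef17 rested on single libraries, and Pramef17 was not called with DESeq2 either (adjusted p = 0.0636). Without the first PDGFRa-only library their log2 fold changes were -0.46, -0.87 and -1.36, with adjusted p of 0.0953, 0.0611 and 0.0800 by edgeR. The first PECAM1-only library also decided the calls of Pramef8 and Pramef17 (edgeR adjusted p = 0.111 and 0.234 without it), and the second those of Pramef8 and Pramel1 (edgeR adjusted p = 0.0528 and 0.0588 without it). Pramel1 was at -1.89 without the second PDGFRa-only library. Over all alternatives the adjusted p by edgeR or DESeq2 ran from 0.00125 to 0.111 for Pramef8, from 0.00136 to 0.0611 for Pramel1 and from 0.00513 to 0.234 for Pramef17.

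The Rhox cluster gave the member that was strongest per kilobase of exon and also 17 of the 35 silent ones. Rhox5, a homeobox gene known from testis, placenta and extraembryonic endoderm, had 361 and 351 CPM in PDGFRa-only, 226 and 181 CPM in double-positive and 97.8 and 96.9 CPM in PECAM1-only libraries. The fractions did not overlap. Per kilobase of exon it was the most abundant member in every fraction, at 472, 270 and 129 CPM per kb. Rhox5 rose by a log2 fold change of 1.87 (SE 0.16, edgeR adjusted p = 3.33e-09) in PDGFRa-only over PECAM1-only cells. Rhox6, a placental and germ cell homeobox gene, had 16.2 and 11.6 CPM in PDGFRa-only, 10.1 and 6.26 CPM in double-positive and 1.02 and 1.25 CPM in PECAM1-only libraries. The rise of Rhox6, a log2 fold change of 3.58 (SE 0.40, edgeR adjusted p = 1.28e-07) was the largest among the tested members.

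Rhox9, a near relative of Rhox6, had 3.14 and 2.57 CPM in PDGFRa-only and 0.728 and 1.41 CPM in PECAM1-only libraries, a log2 fold change of 1.40 (SE 0.56, edgeR adjusted p = 0.0366). Its adjusted p was 0.144 with DESeq2, and by edgeR 0.0964 and 0.0512 without the first and the second PDGFRa-only library and 0.248 without the first PECAM1-only library. Library-size and upper quartile scaling gave edgeR adjusted p of 0.0919 and 0.0719. The adjusted p of Rhox9 ran from 0.0350 to 0.248 over the alternatives. Rhox13, a germ cell gene, had 5.61 and 2.72 CPM in PDGFRa-only and 6.41 and 11.0 CPM in PECAM1-only libraries, a log2 fold change of -1.11 (SE 0.38, edgeR adjusted p = 0.0168). Without the second PDGFRa-only or the second PECAM1-only library its log2 fold change was -0.62 or -0.66, with adjusted p by edgeR of 0.200 or 0.253 in a range that began at 0.00123. Rhox1, with 0.898 and 1.36 CPM in PDGFRa-only and 2.18 and 2.98 CPM in PECAM1-only libraries, was not called.

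The tandem copies of Rhox2, Rhox3 and Rhox4 are so alike that their counts cannot be assigned with confidence. A median of 24.5% of the 50-base stretches of these 22 genes was found in no other annotated gene, against 100% for the other 10 Rhox genes. The 8 Rhox2 copies together had 3 and 6 counts in PDGFRa-only, 3 and 5 counts in double-positive and 24 and 20 counts in PECAM1-only libraries. The 7 Rhox4 copies had 2 counts in all and the 7 Rhox3 copies none. The summed Rhox level, 387 and 370 CPM in PDGFRa-only, 248 and 195 CPM in double-positive and 112 and 118 CPM in PECAM1-only libraries, was therefore mostly Rhox5. The likeness of some copies is visible in their RefSeq promoter windows. The most alike 3 of Rhox2 are printed, for the plus strand of GRCm38.p6, at chrX:37244842-37244991 (Rhox2a), chrX:37453509-37453658 (Rhox2c) and chrX:37530318-37530467 (Rhox2e). Over the full 300-base windows, Rhox2a shares 99.67% of bases with Rhox2c and 99.67% with Rhox2e. Other windows are less alike, with 74.63% for Rhox2b and Rhox2g and 65.65% for Rhox4a and Rhox4g. Among Rhox3 copies the shares ran from 38.14% for Rhox3c and Rhox3g to 100% for Rhox3a and Rhox3h.
Rhox2a: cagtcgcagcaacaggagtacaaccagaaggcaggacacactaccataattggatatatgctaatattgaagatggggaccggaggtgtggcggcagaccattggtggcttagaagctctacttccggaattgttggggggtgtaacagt
Rhox2c: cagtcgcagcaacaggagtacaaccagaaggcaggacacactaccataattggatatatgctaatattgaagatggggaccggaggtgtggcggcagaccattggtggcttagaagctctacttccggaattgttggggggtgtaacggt
Rhox2e: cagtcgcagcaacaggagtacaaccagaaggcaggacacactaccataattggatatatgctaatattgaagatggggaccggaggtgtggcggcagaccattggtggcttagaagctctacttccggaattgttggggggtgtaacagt

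**Figure D3:**
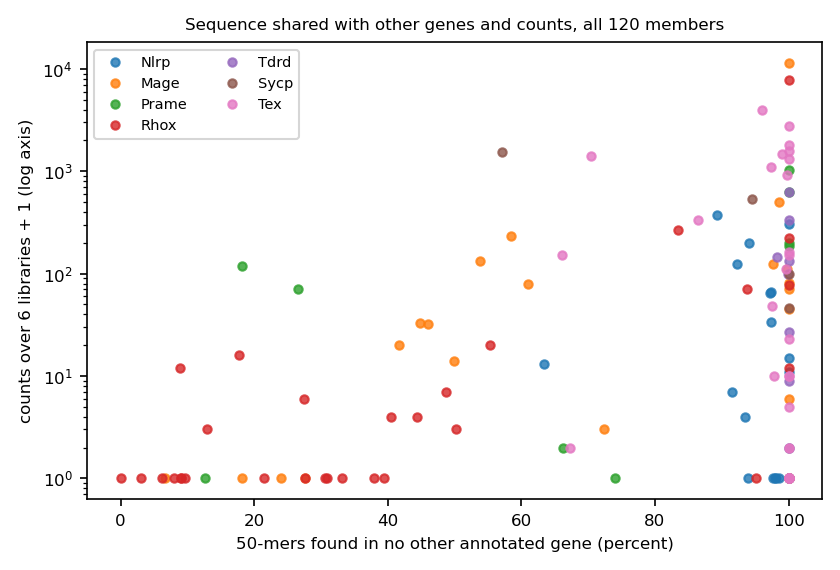
Percent of the 50-base stretches of each of the 120 members that occur in no other annotated gene (horizontal axis) against the counts summed over the 6 libraries plus 1 (vertical log axis), coloured by family. Most members with many counts lie near 100%, while many Rhox copies lie at the lower left with few or no counts.

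Shared sequence touched other families as well. The tested members had a median of 99.7% unique stretches, and 2 of them, Pramel3 and Pramef17, lay below 50%. The 34 untested members with counts had a median of 82.0% and the 35 members at 0 a median of 38.0%, with 19 of those 35 below 50%. Of the tested Magea genes, Magea5 had 53.8%, Magea8 58.5% and Magea6 61.0% unique stretches, while Magea4 had 97.7% and Magea10 100%. How reads that match several copies were counted, and the read length, are not given in the sources used here.

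Tudor genes of the piRNA pathway, which guides the silencing of transposons in germ cells, did not move as a block. Tdrd12, needed for secondary piRNA production, had 0 and 0.453 CPM in PDGFRa-only, 5.51 and 4.69 CPM in double-positive and 16.6 and 23.4 CPM in PECAM1-only libraries. With 3 counts over the PDGFRa-only fraction it was 73.3-fold lower there than in the PECAM1-only fraction (exact 95% counting interval 24.8 to 358). Tdrd1, a scaffold of piRNA granules, had 0.898 and 1.06 CPM in PDGFRa-only, 2.99 and 3.44 CPM in double-positive and 3.35 and 3.76 CPM in PECAM1-only libraries. Its log2 fold change was -1.82 (SE 0.51, edgeR adjusted p = 0.00402) for PDGFRa-only over PECAM1-only.

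Tdrd7, which acts in RNA granules of germ cells and of the lens, went the other way, with 5.61 and 6.04 CPM in PDGFRa-only, 4.41 and 2.66 CPM in double-positive and 1.75 and 1.57 CPM in PECAM1-only libraries. Its log2 fold change was 1.80 (SE 0.43, edgeR adjusted p = 0.00111). Tdrd3, a widely expressed reader of arginine methylation that works with topoisomerase TOP3B, had 20.0 and 18.0 CPM in PDGFRa-only and 15.9 and 12.5 CPM in PECAM1-only libraries and was not called, nor was Tdrd5. Tdrd9 had no count in the PDGFRa-only libraries, 3 and 5 in double-positive and 10 and 8 in PECAM1-only libraries, and was not tested.

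Among 14 listed partners of the TDRD proteins in the piRNA pathway, 12 were tested. In PDGFRa-only against PECAM1-only cells 1 was higher and 10 lower, beside 30.1% higher and 28.8% lower of all tested genes. Partners under the filter level of 1.57 CPM in PDGFRa-only libraries were tested only through the other fractions, so these counts lean in part on the filter. Mael, a piRNA factor, had 1.80 and 0.755 CPM in PDGFRa-only, 12.9 and 14.6 CPM in double-positive and 28.4 and 30.9 CPM in PECAM1-only libraries, a log2 fold change of -4.62 (SE 0.34, edgeR adjusted p = 2.99e-10) for PDGFRa-only over PECAM1-only. The log2 fold change was -2.15 (SE 0.18) for Rnf17, -1.88 (SE 0.22) for the Piwi protein gene Piwil2 and -2.25 (SE 0.27) for Stk31. The higher one was Fkbp6, named because it was the only one, at 23.6 and 22.4 CPM in PDGFRa-only and 8.01 and 8.78 CPM in PECAM1-only libraries.

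The synaptonemal complex genes also divided. Sycp1, the transverse filament that zips paired chromosomes, had 6.96 and 8.46 CPM in PDGFRa-only, 13.1 and 13.3 CPM in double-positive and 21.7 and 19.8 CPM in PECAM1-only libraries. Sycp1 had a log2 fold change of -1.41 (SE 0.25, edgeR adjusted p = 4.96e-05) for PDGFRa-only over PECAM1-only, and the 3 fractions did not overlap. Sycp2, a part of the chromosome axis, had 0.224 and 0.755 CPM in PDGFRa-only and 5.24 and 3.29 CPM in PECAM1-only libraries, with a log2 fold change of -2.95 (SE 0.59). Sycp2l, an oocyte relative of Sycp2, was 13.4-fold lower in PDGFRa-only cells, where it had 2 counts (exact 95% counting interval 3.41 to 115).

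Sycp3, the partner of Sycp2 in the axis, went against these, with 45.3 and 58.3 CPM in PDGFRa-only, 45.6 and 52.1 CPM in double-positive and 19.8 and 29.2 CPM in PECAM1-only libraries. Its log2 fold change was 1.09 (SE 0.21, edgeR adjusted p = 0.000152). Exons of Chpt1 on the opposite strand overlap 52.2% of its exonic bases, and Chpt1 rose too, by a log2 fold change of 0.66 (SE 0.27, edgeR adjusted p = 0.0430), so reads of Sycp3 and Chpt1 cannot be told apart there. Tex12, a part of the central element of the same complex, was also higher, with 6.96 and 6.80 CPM in PDGFRa-only, 6.61 and 2.82 CPM in double-positive and 1.31 and 0.941 CPM in PECAM1-only libraries. Its log2 fold change was 2.58 (SE 0.48, edgeR adjusted p = 9.67e-05).

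Of 15 listed meiosis partners 12 were tested. Lower in the PDGFRa-only than in the PECAM1-only fraction were 11 of these, beside 28.8% of all tested genes. Smc1b and Stra8 were under the filter level of 1.57 CPM in the PDGFRa-only libraries, so the count leans in part on the filter. Smc1b, a meiotic cohesin, had 0.224 and 0.302 CPM in PDGFRa-only, 22.3 and 27.5 CPM in double-positive and 105 and 101 CPM in PECAM1-only libraries. With 3 counts over the PDGFRa-only fraction it was 382-fold lower there (exact 95% counting interval 130 to 1854). Stra8, the switch into meiosis, was 157-fold lower (exact 95% counting interval 53.3 to 762). The cohesin gene Stag3 and the meiotic regulator Meioc had log2 fold changes of -2.81 (SE 0.21) and -4.86 (SE 0.42). Sycp3 and Tex12 were the synaptonemal complex genes called higher, and each is shown with its promoter.

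Promoter windows of RefSeq (GRCm38.p6, 250 bases before to 50 after each gene start) were matched by symbol for 97 of the 120 members. They were searched for the E-box CACGTG, which reads alike on both strands and is bound by MAX and MGA, and for the E2F motif TTCCCGC on either strand. An E-box was found for 11.3% of members and 8.09% of all 27025 genes with windows, and an E2F motif for 8.25% and 5.29%. The 11 members with an E-box include the tandem copies Rhox4b, Rhox4e, Rhox4f and Rhox4g, whose windows share 79.15 to 92.86% of bases. Their matches are not independent, and the higher E-box share among members leans on them. Sycp3 and Tex12 were the 2 members with both, 2.06% of members beside 0.611% of all genes. For CpG, the window with the most CpG was taken for each gene. The median was 23 CpG for 10 of the 13 higher and 8 for 26 of the 30 lower members, the others having no matched window. It was 21 for 7 members not called, 3 for 54 untested members and 8 for all genes. Tex14, a lower member described next, is shown beside them with an E2F motif alone. The printed bases lie at chr10:88459437-88459586 (Sycp3, plus strand), chr9:50561269-50561418 (Tex12, minus strand) and chr11:87404915-87405064 (Tex14, plus strand), with capitals for these motifs.
Sycp3: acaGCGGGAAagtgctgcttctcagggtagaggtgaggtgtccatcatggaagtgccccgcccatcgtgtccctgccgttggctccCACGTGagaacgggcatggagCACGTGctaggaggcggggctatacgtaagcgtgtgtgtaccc
Tex12: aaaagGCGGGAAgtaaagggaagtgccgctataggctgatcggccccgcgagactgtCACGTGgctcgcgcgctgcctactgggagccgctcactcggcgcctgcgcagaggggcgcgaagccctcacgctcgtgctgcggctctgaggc
Tex14: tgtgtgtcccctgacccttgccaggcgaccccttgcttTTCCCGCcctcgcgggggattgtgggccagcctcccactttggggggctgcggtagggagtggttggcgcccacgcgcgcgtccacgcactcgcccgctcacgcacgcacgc

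In Sycp3 the E-boxes begin 64 and 43 bases and the E2F motif 147 bases before the gene start. In Tex12 the E-box begins 93 and the E2F motif 145 bases before it, and in Tex14 the E2F motif begins 112 bases before it. A match in these letters is a description and not a measured site. Of 16 listed repressors of germline genes, all tested, 5 were higher and 11 lower in PDGFRa-only than in PECAM1-only cells. The shares over all tested genes were 30.1% higher and 28.8% lower. Trim28, Mga, Dnmt1 and Uhrf1 had log2 fold changes of -1.70 (SE 0.18), -1.20 (SE 0.16), -1.03 (SE 0.15) and -0.94 (SE 0.16). E2f6, outside the 4 genes of smallest p and named for its motif, had 47.8 and 51.5 CPM in PDGFRa-only and 29.6 and 21.2 CPM in PECAM1-only libraries. Whether these levels bear on the members was not tested.

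Tex genes, which share a name and no function, moved both ways, with 6 higher and 7 lower of 15 tested. Tex14, a kinase-like protein that keeps the bridges between germ cells open, had the smallest adjusted p of any member in this comparison. It had 2.92 and 3.78 CPM in PDGFRa-only, 32.3 and 27.2 CPM in double-positive and 99.9 and 111 CPM in PECAM1-only libraries, and the fractions did not overlap. The log2 fold change was -4.94 (SE 0.24, edgeR adjusted p = 4.65e-13) for PDGFRa-only over PECAM1-only. Tex11, a meiosis gene on chromosome X, had 0.673 and 0.755 CPM in PDGFRa-only, 1.73 and 4.07 CPM in double-positive and 10.3 and 7.06 CPM in PECAM1-only libraries, with a log2 fold change of -3.56 (SE 0.52). Tex21 was at 0 in both PDGFRa-only libraries against 8.44 and 4.08 CPM in the PECAM1-only libraries, at least 23.1-fold lower.

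Tex9, a centriolar satellite gene, had 15.3 and 14.7 CPM in PDGFRa-only, 29.1 and 26.9 CPM in double-positive and 69.3 and 63.2 CPM in PECAM1-only libraries, a log2 fold change of -2.15 (SE 0.20). Mns1 on the opposite strand overlaps 32.3% of its exonic bases and had a log2 fold change of -2.36 (SE 0.29), so the reads of the 2 genes cannot be told apart there. Tex40, the sperm calcium channel subunit Catsperz, had a log2 fold change of -2.96 (SE 0.49), and 46.5% of its exonic bases overlap Kcnk4, which had 11 counts in all. The retrotransposon regulators Tex19.1 and Tex19.2 are neighbouring copies. Tex19.2, with 1 count over the PDGFRa-only fraction, was 29.3-fold lower there than in the PECAM1-only fraction (exact 95% counting interval 4.92 to 1188). Tex19.1 had 32.3 and 18.1 CPM in PDGFRa-only, 24.4 and 26.1 CPM in double-positive and 37.8 and 40.9 CPM in PECAM1-only libraries, a log2 fold change of -0.67 (SE 0.23, edgeR adjusted p = 0.0174). Without the first PDGFRa-only library that was -1.10, and without the second it was -0.28 with an adjusted p of 0.291 by edgeR. Without the first or the second PECAM1-only library the edgeR adjusted p was 0.0535 or 0.0950, and it ran from 8.03e-05 to 0.291 over the alternatives.

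Of the 6 higher Tex genes, Tex2, Tex261 and Tex264 are known from general cell functions. Tex264, an ER-phagy receptor, had 68.2 and 56.8 CPM in PDGFRa-only, 39.8 and 36.9 CPM in double-positive and 9.17 and 11.0 CPM in PECAM1-only libraries, a log2 fold change of 2.63 (SE 0.21, edgeR adjusted p = 8.70e-10). Tex261, an adaptor of transport from the ER, had 67.8 and 56.8 CPM in PDGFRa-only, 41.4 and 38.5 CPM in double-positive and 21.0 and 22.9 CPM in PECAM1-only libraries, a log2 fold change of 1.50 (SE 0.19). For both genes the 3 fractions did not overlap. Tex13 on chromosome X rose by a log2 fold change of 1.06 (SE 0.23).

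Tex2, a lipid transfer protein of the ER, and Tex15, a germ cell factor of transposon methylation, rose by 0.62 (SE 0.19) and 0.68 (SE 0.19) in the PDGFRa-only fraction. Tex2 lost its call without the second PDGFRa-only library, with a log2 fold change of 0.39 and an adjusted p of 0.0881 by edgeR, and without the first PECAM1-only library, with 0.111 (range over the alternatives 0.000124 to 0.124). Library-size and upper quartile scaling ended it too, with adjusted p by edgeR of 0.124 and 0.0581. Tex15 lost its call without the first PECAM1-only library and with library-size scaling, with adjusted p by edgeR of 0.0587 and 0.0826 (range over the alternatives 0.000513 to 0.0826). Tex10, a factor of ribosome assembly, had 97.0 and 91.8 CPM in PDGFRa-only and 139 and 107 CPM in PECAM1-only libraries and was not called (edgeR adjusted p = 0.0560, range over the alternatives 0.00158 to 0.556). Tex30 was not called either, with a log2 fold change of 0.42 (SE 0.30).

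**Figure D4:**
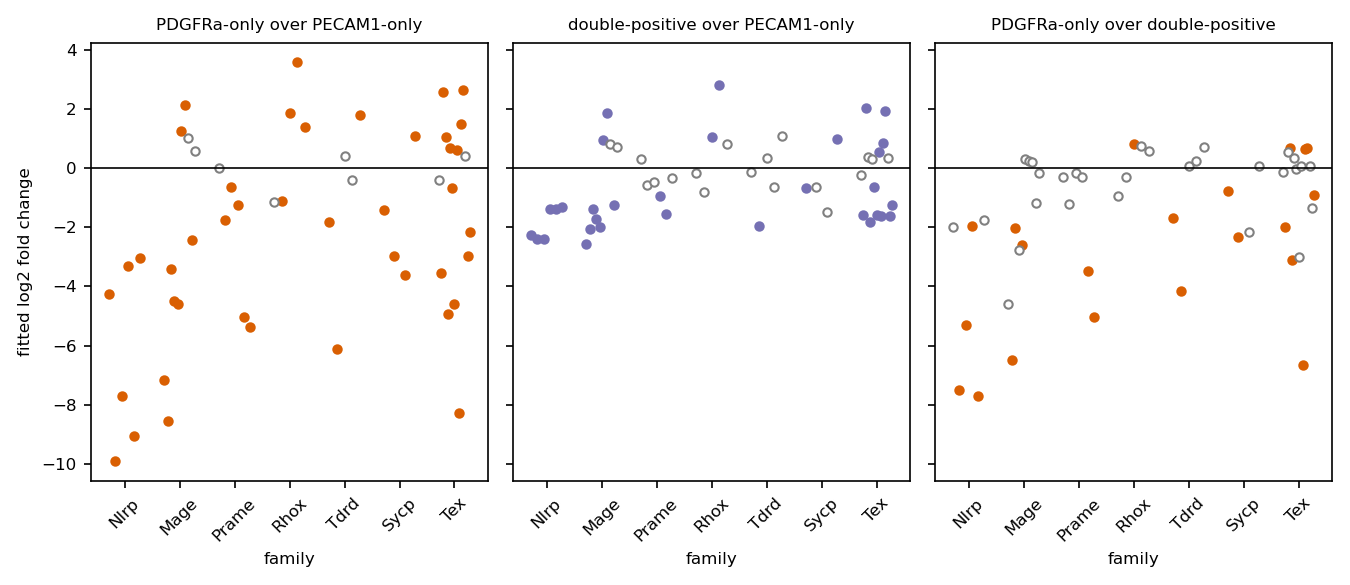
Fitted log2 fold changes of the 51 tested members by family in the 3 comparisons, where each point is a gene, filled if its edgeR adjusted p is below 0.05 and open if not. Nlrp points lie below 0 in every panel and the spread is widest for PDGFRa-only over PECAM1-only; values of genes at 0 counts in a fraction depend on the prior count and are not bounds.

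The double-positive fraction carries both surface proteins. Against the PECAM1-only fraction, 9 members were higher and 23 lower in the double-positive fraction, beside 38.2% called, 21.8% higher and 16.4% lower of all tested genes. Against the double-positive fraction, 4 members were higher and 17 lower in PDGFRa-only cells, beside 17.6% called, 5.94% higher and 11.7% lower of all tested genes. These counts lean on the filter too. Of the lower members against PECAM1-only, 7 were above its level in the PECAM1-only fraction alone and 11 in the double-positive and PECAM1-only fractions, and of those lower in PDGFRa-only than in double-positive cells 3 and 11 were. Among the 22 members above that level in all 3 fractions, 7 were higher and 5 lower in double-positive over PECAM1-only and 4 higher and 3 lower in PDGFRa-only over double-positive. The comparisons share libraries, so their calls are not independent. The mean of the double-positive libraries lay between the means of the other fractions for all 43 members called between PDGFRa-only and PECAM1-only, which were chosen for a difference between those fractions. This was not set beside all tested genes, so it is not read as particular to the members. Of the 8 members not called there, Pramef12 and Mageh1 had their highest mean in the double-positive fraction, for Pramef12 at 19.6 CPM, beside 15.8 CPM in PDGFRa-only and 15.9 CPM in PECAM1-only libraries. The 30 lower members stood at a median of 7.19% of their PECAM1-only level in the PDGFRa-only fraction (0 to 64.4%) and at 36.6% in the double-positive fraction (16.5 to 90.4%).

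Of the 30 lower members, 14 were called lower in all 3 comparisons, and Rhox5, Tex261 and Tex264 were called higher in all 3. The share of all tested genes called in all 3 is not given here, so these counts are not read as particular to the members. Pramel6, Sycp2 and Tdrd1 kept most of their level in the double-positive fraction. Pramel6 stood at 79.1% of its PECAM1-only level there, and was 36.9-fold lower in the PDGFRa-only than in the double-positive fraction (exact 95% counting interval 9.91 to 310). Against PECAM1-only cells the double-positive level of Pramel6 had a log2 fold change of -0.34 (SE 0.34, edgeR adjusted p = 0.465). Nlrp4f and Nlrp14 were at least 15.4-fold and at least 13.6-fold lower in the PDGFRa-only than in the double-positive fraction. Tex14 had a log2 fold change of -3.12 (SE 0.25) between the same fractions and of -1.83 (SE 0.18) between the double-positive and PECAM1-only fractions. Maged1, Maged2, Sycp3 and Tex12 were higher in both PDGFRa-positive fractions than in the PECAM1-only fraction and were not called between those 2 fractions, with log2 fold changes of 0.31 (SE 0.18), 0.26 (SE 0.25), 0.09 (SE 0.20) and 0.54 (SE 0.39).

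Of the 43 members called in PDGFRa-only against PECAM1-only cells, 8 lost the call under at least 1 alternative. Of the 32 called between the double-positive and PECAM1-only fractions 16 did: Magea5, Magea6, Magea10, Magee2, Nlrp4a, Nlrp9b, Nlrp12, Pramel1, Pramel3, Sycp1, Tex2, Tex11, Tex12, Tex19.1, Tex19.2 and Tex21. In that comparison 11 members were lower without the first and 18 without the second PECAM1-only library, and 16 without the first and 15 without the second double-positive library, beside 23 with all. Nlrp9b is an example, with a log2 fold change of -1.30 (SE 0.48) that was -0.49 without the first PECAM1-only library (edgeR adjusted p = 0.618, range over the alternatives 0.00954 to 0.618). Magee2, at -1.24 (SE 0.43), was at -0.72 without the second PECAM1-only library, and Tex21, at -1.61 (SE 0.47), was at -0.97 without the first. Tex12 is another, at 2.04 (SE 0.49) and 1.32 without the first double-positive library, with an adjusted p of 0.119 by edgeR (range over the alternatives 0.000108 to 0.119). Of the 21 called between the PDGFRa-only and double-positive fractions, 10 lost the call under at least 1 alternative: Magea5, Nlrp4a, Rhox5, Sycp1, Sycp2, Tdrd1, Tex11, Tex13, Tex261 and Tex264. Tex11, at -1.98 (SE 0.60), was at -1.24 without the second double-positive library, and Sycp2, at -2.31, was at -3.50 without the second PDGFRa-only library. The 4 higher calls of Rhox5, Tex13, Tex261 and Tex264 were all lost without the second double-positive library, with adjusted p by edgeR of 0.0594, 0.192, 0.155 and 0.114, each the highest over its alternatives. Without the first double-positive library 1 of them was called. For Magea6, Sycp2l, Tdrd12 and Tex19.2 the second PDGFRa-only library and for Nlrp12 and Pramel6 the first held all counts of that fraction, so without it these genes are at 0 there and their fitted values, -6.90 to -9.92 against PECAM1-only, are no bounds.

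**Figure D5:**
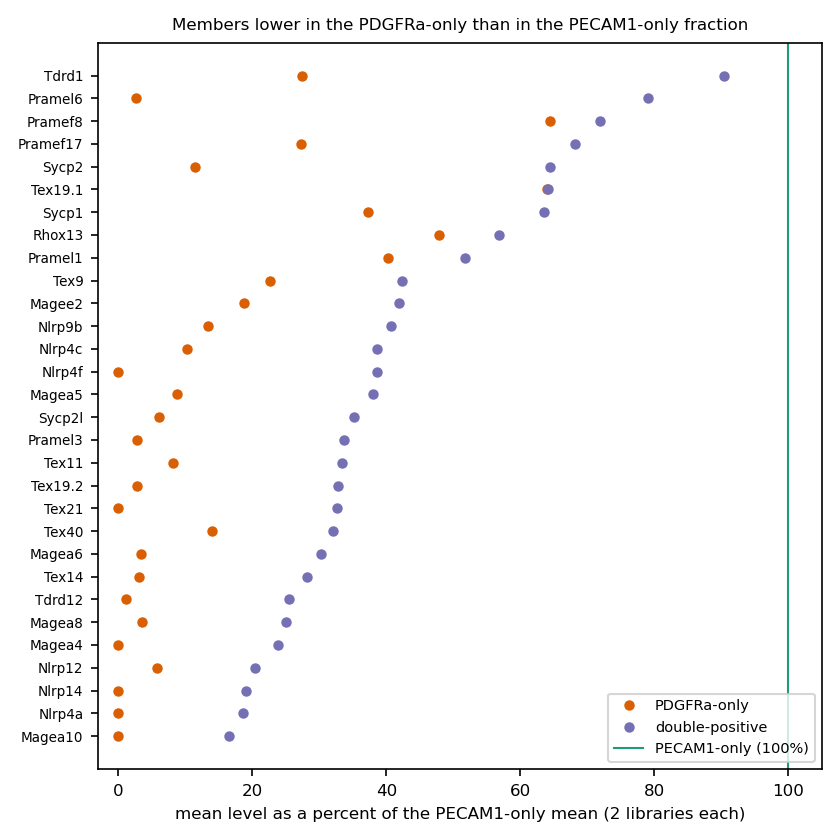
Mean level of the 30 members called lower in PDGFRa-only than in PECAM1-only cells, as a percent of the PECAM1-only mean, with the PDGFRa-only and double-positive means of 2 libraries each as points. Points of the double-positive fraction run from 16.5% for Magea10 to 90.4% for Tdrd1, right of the PDGFRa-only points.

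Chromosome X carries the Rhox members and the Mage members other than Mageb3, and members there were set beside the genes of that chromosome. Of 18 tested members on chromosome X, 6 were higher and 9 lower in PDGFRa-only than in PECAM1-only cells, beside 30.6% higher and 31.6% lower of 588 tested genes of that chromosome. The tested Magea genes, Magee2, Pramel3 and Tex11, all lower, were above the filter level in PECAM1-positive fractions alone. The contrast with the chromosome therefore leans on the filter and is no support.

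Markers of germ cells were followed as well. Of 11 listed markers 6 were tested. Lower in the PDGFRa-only than in the PECAM1-only fraction were 5 of these, beside 28.8% of all tested genes. Dppa3 and Prdm1 did not have both PDGFRa-only libraries above the filter level of 1.57 CPM, so the count leans in part on the filter. The summed level of the 11 listed markers was 43.3 and 42.9 CPM in PDGFRa-only, 173 and 155 CPM in double-positive and 395 and 357 CPM in PECAM1-only libraries. Dazl, a germ cell RNA-binding protein that ESCs also express, made up much of it, at 7.41 and 6.34 CPM in PDGFRa-only, 91.9 and 76.0 CPM in double-positive and 215 and 168 CPM in PECAM1-only libraries. Sohlh2 had 29.2 and 25.1 CPM in PDGFRa-only against 123 and 125 CPM in PECAM1-only libraries, Prdm1 had 0.224 and 2.27 against 26.3 and 33.6 CPM, and Ddx4 had 3.14 and 6.95 against 17.0 and 19.9 CPM. Dppa3 was also lower and Dnd1 was not called. Of the 5 untested markers, Sohlh1 was at 0 in every library and Nanos2, Nanos3, Figla and Zp3 reached at most 1.60 CPM. The 8 markers of 2-cell-like cells, none tested, summed to at most 1.72 CPM in any library. Of 6 ESC markers 5 were lower in the PDGFRa-only fraction and Klf4 was not called, and all 6 primitive endoderm markers were higher. Of all tested genes, 28.8% were lower and 30.1% higher there. The part of these markers in the members' levels was not tested.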

How the data were processed

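RNA-seq libraries of 3 sorted fractions of mouse ESC cultures, 2 each, were compared. The deposited count table holds raw read counts per gene as the authors made them. The submitters' processing notes name cutadapt 1.2.1, Bowtie2 2.1.0, TopHat2 2.0.8b, HTSeq 0.5.4p3 and the build GRCm38, without order or roles. Per the labels' protocols, RNA was amplified before library preparation, so counts are not independent molecules and all floors and intervals cover counting error only. Strand use in counting is not stated. A deposited RPKM table, with 6 per-sample columns, was not used, because its preprocessing is not stated.

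Counts were tested with edgeR 4.0.16 (R 4.3.3): filterByExpr with a minimum count of 10 kept 13909 genes, libraries were scaled by TMM, and all 6 libraries entered a robust quasi-likelihood fit with a mean for each fraction (3 residual degrees of freedom, biological coefficient of variation 13.5%). Tests were two-sided, with Benjamini-Hochberg adjustment over all tested genes and a threshold of 0.05. CPM is relative to the TMM-scaled library size. Fold changes are of the fraction named first over the other. For a gene at 0 counts in a fraction, the fold given is a bound at a floor of 3 counts over that fraction (3 counts equal 0.437 to 0.673 CPM in single libraries), and with 1 to 3 counts a ratio with an exact 95% interval. The steps were tested on simulated counts. All 120 members matched GENCODE M21, and 50-base stretches were searched in all its transcripts. A gene counts as holding a promoter motif if any of its RefSeq windows does. Rows whose symbols are in capitals, 8 with 0 counts, were left out.

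The rule for named genes took all tested members, the highest untested ones, and up to 4 tested genes of smallest p in each partner list. Members and lists were chosen with earlier results of these data known. The alternatives were upper quartile and library-size scaling, DESeq2 1.42.0, no and a stricter count filter (30), the 2 fractions alone, a replicate block and each library left out.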

Additional observations from a re-analysis of the deposited data

How the results depend on the processing

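Across 13 alternatives, no called member changed sign in any of the 3 comparisons. Scaling moved all genes together: with library-size scaling the median log2 fold change of all tested genes was -0.28 for PDGFRa-only over PECAM1-only, -0.22 for double-positive over PECAM1-only and -0.07 for PDGFRa-only over double-positive, and with upper quartile scaling -0.20, -0.17 and -0.04. Members higher and lower in PDGFRa-only against PECAM1-only then numbered 10 and 32 with library-size scaling and 11 and 32 with upper quartile scaling. Over all genes, library-size scaling gave 3227 higher and 5318 lower genes, 2421 and 3658, and 528 and 1878 in the same order of comparisons, in place of 4193 and 4012, 3031 and 2288, and 826 and 1624. Upper quartile scaling gave 2528 higher and 3306 lower in double-positive over PECAM1-only. A stricter count filter tested 35 members, and 19 were lower in PDGFRa-only and 15 in double-positive against PECAM1-only. With DESeq2, 11 members were lower in PDGFRa-only than in double-positive. With 1 library left out, members lower in double-positive against PECAM1-only ran from 11 to 27 and all such genes from 1307 to 2788, and members higher in PDGFRa-only against double-positive from 0 to 5 and all such genes from 218 to 1235. At this depth 34 members with counts stayed below the filter and were not tested.

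Same-numbered libraries deviated together with r of -0.03 (PDGFRa-only and PECAM1-only), 0.13 (PDGFRa-only and double-positive) and 0.18 (double-positive and PECAM1-only), so the numbers were not taken as pairs. With the replicate block, members higher and lower numbered 13 and 31 for PDGFRa-only over PECAM1-only, 9 and 23 for double-positive over PECAM1-only and 5 and 18 for PDGFRa-only over double-positive. Under the block Pramef12 had a log2 fold change of 0.018 for PDGFRa-only over PECAM1-only.

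Sign changes occurred only in members that were not called. With 1 library left out at a time, the log2 fold change of Pramef12 for PDGFRa-only over PECAM1-only ran from -0.37 to 0.52, and it was 0.024 with no count filter. For double-positive over PECAM1-only it ran from -0.054 to 0.84 for Pramef12, from -0.93 to 0.024 for Pramef17 and from -0.69 to 0.22 for Rhox1. For PDGFRa-only over double-positive it ran from -0.051 to 0.53 for Maged2, from -0.019 to 0.44 for Magee1, from -0.58 to 0.24 for Mageh1, from -0.42 to 0.17 for Pramef8, from -0.95 to 0.062 for Pramel1 and from -0.85 to 0.18 for Rhox13. In the same comparison it ran from -0.11 to 0.26 for Sycp3, from -0.057 to 0.18 for Tdrd3, from -0.31 to 0.57 for Tdrd5, from -0.47 to 0.35 for Tex19.1, from -0.16 to 0.29 for Tex2 and from -0.31 to 0.44 for Tex30. There Tdrd3 was at -0.012 with library-size scaling and Tex19.1 at 0.014 with DESeq2. The cause of these changes was not tested.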
